A study of Mus musculus with 19 samples.

Results

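Levels of the erythroid miRNAs miR-451 and miR-144 were followed from liver to liver in 19 mice given dibenz[a,h]anthracene or its vehicle. The pair was chosen by name: 3 erythroid miRNAs were sought among the miRNA names of the scanner files, and 2 of them, mmu-miR-451 and mmu-miR-144, were among the 696 miRNAs analysed. The third, mmu-miR-486, and the other strands of miR-144 and miR-486 were not analysed here. The animals were male MutaMouse mice (transgenic strain 40.6), 10 weeks old, gavaged daily for 28 days with the polycyclic aromatic hydrocarbon dibenz[a,h]anthracene in olive oil. Controls received olive oil alone (5 livers, 0 mg/kg/day). The low dose was 6.25 mg/kg/day (5 livers), the middle dose 12.5 mg/kg/day (4 livers) and the high dose 25 mg/kg/day (5 livers). All groups share the strain, its transgene, the sex, the gavage with oil and an interval of 3 days between the last dose and dissection. Each liver was read on 1 one-colour Agilent miRNA array, and the 19 arrays lay on 3 slides that each held all 4 groups. The row in the array barcode went with dose: most control and low-dose arrays had row 1, most middle-dose and all high-dose arrays row 2. Replicate 20 of the middle dose had row 1. Row was not a term in the tests below, and its part was not tested.

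The genes for miR-144 and miR-451 lie side by side and are transcribed together from a locus driven by the erythroid factor GATA1. Both miRNAs accumulate in maturing red cells, in which miR-451 restrains the 14-3-3 zeta messenger. In the circulating red cell miR-451 is among the most abundant miRNAs. miR-451 is also known for its route of manufacture: its short hairpin is cut by Argonaute 2 rather than by Dicer, so the mature strand runs into the loop. In a piece of liver the pair is commonly read as a sign of the blood the piece holds. Blood itself was not measured here, and in such a bulk extract fewer red cells and less of a miRNA per cell cannot be told apart.

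The mature sequences are shown because the arrays read these strands. Both were found in RefSeq (build GRCm38.p6), and capitals mark the seed, bases 2 to 8, which selects the target messengers. miR-451 (RefSeq miR-451a) lies at chr11:78073186-78073207 and miR-144 (RefSeq miR-144-3p) at chr11:78073047-78073066, both on the plus strand. miR-101a-3p, from the minus strand of chromosome 4, is set beside them for its seed.
miR-451: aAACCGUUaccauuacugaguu
miR-144: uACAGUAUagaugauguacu
miR-101a: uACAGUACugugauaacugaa
The 7-base seed of miR-451 was shared by 0 of the other 1678 mature sequences of the table, and so was that of miR-144. Bases 2 to 7 of miR-144 were those of 1 other entry, miR-101a-3p, a miRNA expressed in hepatocytes. The members of the pair have different seeds, although they come from 1 transcript.

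The hairpins show that arrangement, and here the capitals mark the mature strand. The Mir144 hairpin (chr11:78073005-78073070, plus strand) lay 99 bases before the Mir451a hairpin (chr11:78073170-78073241, plus strand).
Mir144: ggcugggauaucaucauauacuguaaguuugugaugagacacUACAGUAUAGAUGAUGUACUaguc
Mir451a: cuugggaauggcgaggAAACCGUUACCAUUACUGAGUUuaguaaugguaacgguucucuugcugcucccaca
Mature miR-144 occupied bases 43 to 62 of a 66-base hairpin, on its 3′ arm. Mature miR-451 occupied bases 17 to 38 of 72 bases and so crossed the midpoint of its hairpin, at base 36.

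Both miRNAs were detected on 19 of 19 arrays by the scanner software's own detection mark. The raw intensity of miR-451 ran from 818 to 4101 and that of miR-144 from 24.6 to 210, with the weakest miR-144 value 2.29 log2 units above the floor. Levels below are log2 intensities of the brighter probe of each miRNA set against the 75th percentile of their own array, so 0 is that percentile. The arrays differed in brightness along with dose: the log2 of the 75th percentile was 8.42 ± 0.47 (SD, n = 5) in controls, 8.20 ± 0.38 at the low, 7.71 ± 0.37 (n = 4) in the middle group and 7.59 ± 0.30 in the high-dose group. The spike-ins added before labelling also became dimmer, from 10.93 ± 0.23 in controls to 10.08 ± 0.17 at the high dose. The part of this drift in the results below was not tested, and each is given with and without scaling where that changes a call.

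The question of the dose comparisons was whether exposure changed the amount of erythroid miRNA in the liver. Neither miR-451 nor miR-144 passed the test at any dose. In the controls miR-451 stood at 3.31, 2.81, 2.83, 3.15 and 3.06 (log2 levels of replicates 1, 10, 17, 19 and 22). At the low dose it stood at 3.32, 3.31, 3.06, 2.52 and 3.12 (replicates 3, 11, 12, 18 and 24). Low and control livers overlapped, with 1 low-dose liver (replicate 18) below all controls and 1 just above them. The middle dose gave 2.30, 3.13, 2.80 and 3.67 (replicates 5, 6, 14 and 20), which held both the lowest and the highest miR-451 level of the study. At the high dose the levels were 2.70, 2.76, 3.05, 2.56 and 2.66 (replicates 7, 8, 15, 16 and 23). Here 4 of the 5 livers lay below all controls and 1, replicate 15, lay among them, so these groups overlapped too.

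Group means of miR-451 were 3.03 ± 0.21 in controls (SD, n = 5), 3.06 ± 0.32 at the low, 2.98 ± 0.58 (n = 4) for the middle and 2.75 ± 0.19 for the high dose. With slide as a block, limma put the low dose 0.04 above the controls on the log2 scale (SE 0.23, 95% interval -0.46 to 0.53, adjusted p = 1). The middle dose stood at -0.05 (SE 0.25, interval -0.59 to 0.49, limma adjusted p = 1). The high dose stood at -0.28 (SE 0.24, interval -0.79 to 0.24, limma adjusted p = 0.518), or 0.825 of the control level with an interval of 0.578 to 1.18. The slope over dose was -0.0124 log2 units per mg/kg/day (limma adjusted p = 0.403), and the F test over all 4 groups gave a limma adjusted p of 0.732. Each of these intervals holds 0, and with this scaling the widest bounds a change in miR-451 to less than 1 log2 unit either way. That bound depended on scaling. The high dose stood at -0.98 (SE 0.34) without scaling and at -0.54 (SE 0.28) with the 75th percentile of all probes.

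miR-144, made from the same transcript, ran through the groups in a like order. Its control levels were -1.05, -1.51, -1.47, -1.19 and -1.35, with replicates in the order given above. The low dose gave -0.98, -0.91, -1.24, -1.91 and -1.19, which spanned the control range on both sides. The middle dose gave -2.04, -1.33, -1.98 and -0.53, again with the study's highest level in replicate 20 and 2 livers below all controls. The high dose gave -1.49, -1.32, -1.27, -2.50 and -1.76, of which 3 livers lay within the control range and 2 below it. Replicate 16 of the high dose had the lowest miR-144 level of all 19.

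Group means of miR-144 were -1.31 ± 0.19 in controls (SD, n = 5), -1.24 ± 0.40 at the low, -1.47 ± 0.71 (n = 4) for the middle and -1.67 ± 0.50 for the high dose. The limma difference from controls was 0.10 at the low dose (SE 0.31, interval -0.56 to 0.77, adjusted p = 1). It was -0.17 at the middle (SE 0.33, interval -0.90 to 0.55, limma adjusted p = 0.881). It was -0.34 at the high dose (SE 0.32, interval -1.02 to 0.35, limma adjusted p = 0.580), or 0.791 of the control level with an interval of 0.492 to 1.27. The slope was -0.0161 per mg/kg/day (limma adjusted p = 0.418) and the F test gave an adjusted p of 0.722.

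**Figure D1:**
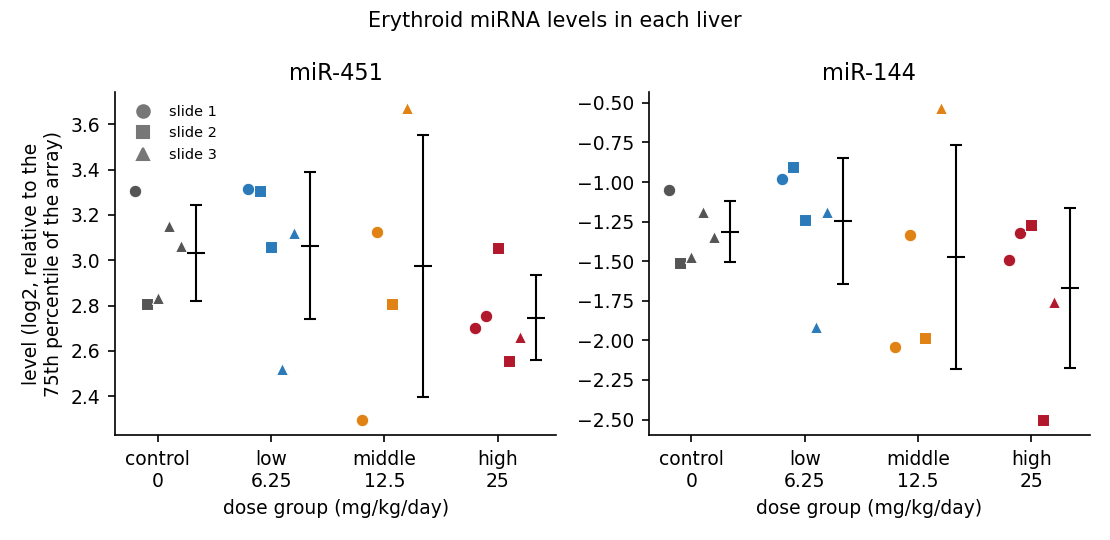
Level of miR-451 (left) and miR-144 (right) in each of 19 livers, as log2 intensity over the 75th percentile of its array, by dose group in mg/kg/day. Points are livers with the slide as shape, and the bar beside each group is its mean ± SD; the middle dose holds both the lowest (2.30) and the highest (3.67) miR-451 level.

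For both miRNAs the order of the group means was low, control, middle, high, and no neighbours in it differed beyond their spread. Between the doses themselves, limma put the high dose at -0.31 against the low dose for miR-451 (SE 0.23, adjusted p = 0.481) and at -0.44 for miR-144 (SE 0.31, adjusted p = 0.457). High against middle was -0.23 for miR-451 and -0.16 for miR-144 (limma adjusted p = 1 for each). Middle against low was -0.09 for miR-451 (limma adjusted p = 1) and -0.28 for miR-144 (limma adjusted p = 0.815).

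Of the pair, 0 of 2 were called at an adjusted p of 0.05 in each dose comparison. Over the 208 miRNAs tested, the low dose called 4.33%, the middle dose 5.77% and the high dose 2.4%, all of them higher than in controls, with 0.962% called for the slope and 0.962% for the F test. That direction depended on scaling: at the middle dose 1 was higher and 33 lower with the 75th percentile of all probes, 1 and 8 with quantile normalization, and 1 and 10 with the total signal per miRNA. At the high dose quantile normalization gave 1 higher and 8 lower, and the total signal 2 higher and 6 lower. For scale, miR-34a, a target of p53, stood 1.52, 3.11 and 3.49 log2 units above controls at the rising doses (limma adjusted p = 0.0165, 3.59e-05 and 4.88e-06). The low-dose call held in 3 of 13 other settings and the others in 13 of 13. These 13 include the dimmer probe of miR-451 and miR-144, which leaves miR-34a as in the main fit. The median difference of all tested miRNAs was 0.07, 0.11 and 0.06. Groups that did not overlap were found for 0 of 2 members at each dose, against 3.37%, 5.29% and 4.33% of the tested miRNAs.

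**Figure D2:**
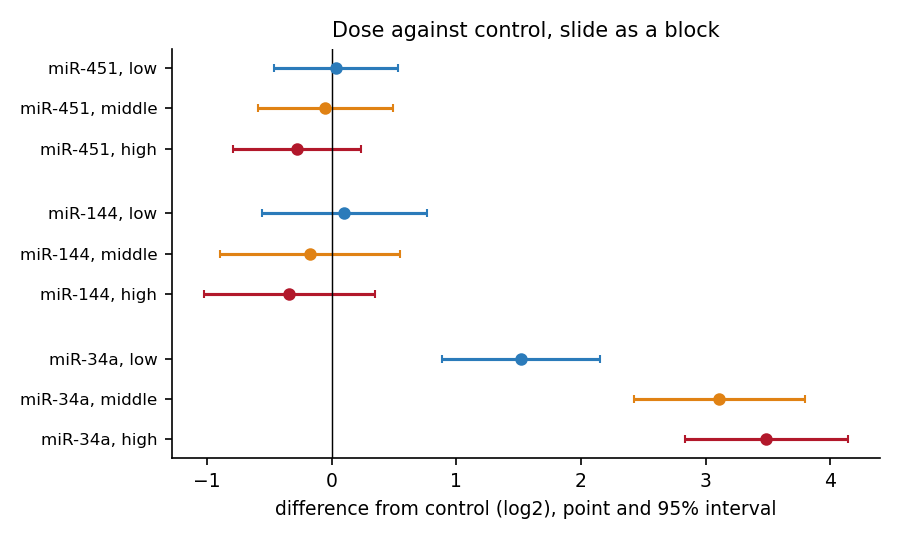
Difference of each dose from control on the log2 scale (point) with its 95% interval (bar), from limma with slide as a block, for miR-451, miR-144 and, for scale, miR-34a. All 6 intervals of miR-451 and miR-144 hold 0, while those of miR-34a lie above it.

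The lower high-dose level depended on scaling for its call. Without scaling of the arrays, the high dose lay at -0.98 for miR-451 (limma adjusted p = 0.0439), and the slopes were -0.0411 for miR-451 and -0.0448 for miR-144 per mg/kg/day (limma adjusted p = 0.0183 and 0.0334). In those unscaled values the median of all tested miRNAs at the high dose was itself at -0.47, and 68 of the 69 miRNAs called were lower.

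Within slides the differences did not all run one way. miR-451 at the high dose stood at -0.58 on slide 1, 0.00 on slide 2 and -0.35 on slide 3 relative to the controls of the same slide. miR-144 at the high dose stood at -0.35, -0.37 and -0.42. At the middle dose the sign turned between slides, from -0.59 on slide 1 to 0.66 on slide 3 for miR-451 and from -0.64 to 0.81 for miR-144. Slides 1 and 2 held 1 control each, and these values have no test. Without replicate 20 of the middle dose, the liver richest in both, the middle-dose difference was -0.42 for miR-451 and -0.68 for miR-144 (limma adjusted p = 0.257 and 0.175). Without replicate 5 instead, the liver of that dose poorest in both, the difference was 0.16 for miR-451 and 0.0258 for miR-144, neither of them called.

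What set the pair apart from most miRNAs was the distance between livers of the same group, though not among the controls, nor for miR-451 at the high dose. After group and slide means were removed, the SD of miR-451 between livers was 0.37 log2 units, rank 14 of the 137 miRNAs detected on every array, and that of miR-144 was 0.49, rank 5. The median of the 137 was 0.17, so these were 2.10 and 2.80 times the median. From the poorest to the richest liver, miR-451 ranged 2.60-fold and miR-144 3.92-fold. A few livers lay farthest out. For miR-451 they were replicates 20 (0.68) and 5 (-0.67) of the middle dose and 18 (-0.56) of the low dose, in log2 units. For miR-144 they were the same livers (0.94, -0.65 and -0.72) and replicate 16 of the high dose (-0.70).

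The spread lay between arrays rather than between spots of an array. After outlier spots were dropped, 8 to 10 spots of each probe were left on an array. The median SD between these spots was 0.0714 for miR-451 and 0.0570 for miR-144. The levels of the 2 probes of each miRNA had a Pearson r over the 19 arrays of 0.993 for miR-451 and 0.996 for miR-144. Spots and probes share the RNA of 1 liver and 1 hybridization, so they do not show what part arose before it.

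The spread was not equal in the groups. In controls the SD of miR-451 was 0.21 and that of miR-144 0.19, beside a median of 0.20 over the 137 miRNAs. At the middle dose the SDs were 0.58 and 0.71 beside a median of 0.20. At the high dose miR-451 had an SD of 0.19 and miR-144 one of 0.50 beside a median of 0.19. The difference in spread between groups was not tested.

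**Figure D3:**
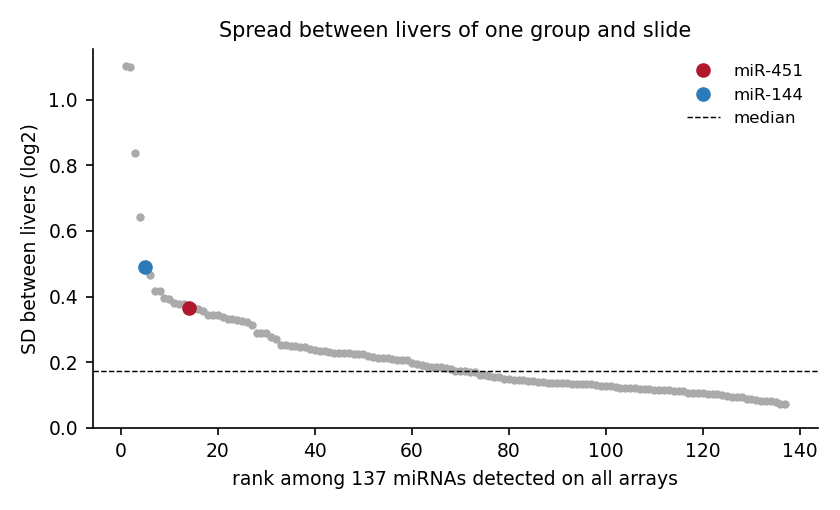
SD of the log2 level between livers after group and slide means were removed, for the 137 miRNAs detected on all 19 arrays, ranked from the most variable. miR-144 (0.49) holds rank 5 and miR-451 (0.37) rank 14, both above the dashed median of 0.17.

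miR-451 and miR-144 varied together from liver to liver. Across the 19 livers the levels of miR-451 and miR-144 had a Pearson r of 0.895 and a Spearman rho of 0.909, each with a permutation p of 1e-05 (two-sided, 100000 resamples, the smallest these can give). Adjusted over the 14 relations computed, each p was 0.00014. Without replicates 5 and 20 of the middle dose, the livers farthest from the median of miR-451, r was 0.854. Within slide 1 r was 0.942 (n = 6, exact permutation p = 0.00417), within slide 2 it was 0.949 (n = 6, exact permutation p = 0.00417) and within slide 3 it was 0.995 (n = 7, exact permutation p = 0.000397). With group and slide means removed r was 0.907.

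Array brightness and spike-in signal were set beside the pair, and their part in the correlation was not tested. The r with the log2 75th percentile was 0.245 for miR-451 and 0.373 for miR-144, and r with the labelling spike-ins was 0.423 and 0.388 (adjusted permutation p from 0.313 to 0.451). With other scalings the r of the pair was 0.951 (75th percentile of all probes), 0.954 (labelling spike-ins), 0.970 (none) and 0.734 (quantile). After normexp background correction with an added 50 intensity units it was 0.300 (permutation p = 0.211). miR-144 lay below 50 units on 2 of the 19 arrays and miR-451 on 0, and the cause of that lower r was not tested.

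**Figure D4:**
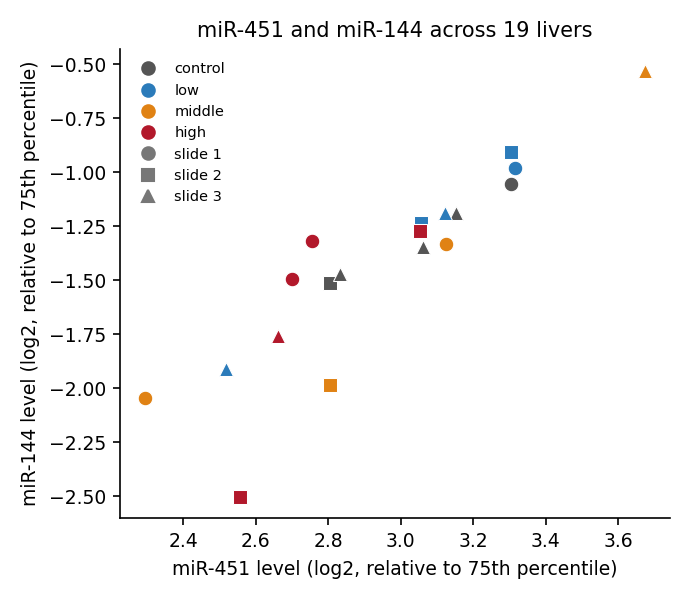
Level of miR-144 against miR-451 in each of 19 livers, both as log2 intensity over the 75th percentile of its array; colour marks the dose group and shape the slide. The livers lie along 1 line (Pearson r 0.895), with replicate 20 of the middle dose at the upper end and replicate 16 of the high dose lowest in miR-144.

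The within-array difference of the pair, miR-451 minus miR-144 in log2 units, is free of scaling. Its size has no meaning between different probes, but its steadiness can be read. In controls it was 4.35 ± 0.04 (SD, n = 5), at the low dose 4.31 ± 0.08 (n = 5), at the middle dose 4.45 ± 0.25 (n = 4) and at the high dose 4.42 ± 0.38 (n = 5). The larger SDs came with 2 livers of slide 2, replicate 16 of the high dose at 5.06 and replicate 14 of the middle dose at 4.79, whereas the other 17 ranged from 4.08 to 4.46. Replicate 16 was also the dimmest array, with a 75th percentile of 139 intensity units and a raw miR-144 intensity of 24.6. Over all 19 arrays the difference had an r of -0.407 with the log2 75th percentile (permutation p = 0.0840, adjusted 0.313), which was -0.000505 without the 2 arrays farthest from its median.

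Among the 136 other miRNAs detected on every array, miR-144 had the highest r with miR-451, and miR-451 the highest with miR-144, after group and slide means were removed. That held for miR-451 in 9 of 11 ways of processing the values and for miR-144 in 10 of 11. The exceptions were quantile normalization, where miR-144 was at rank 2 for miR-451, and normexp, where it was at rank 10 and miR-451 at rank 78 for miR-144. The points of these correlations share arrays and scaling, and they are given as a description.

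Beyond each other, miR-451 was most like miR-3107 (r = 0.790), miR-106b (0.688), miR-29c (0.610), miR-20b (0.591) and miR-25 (0.590), over 19 arrays and with a median of 0.08 for all 135 others. miR-106b and miR-25 come from 1 gene cluster, and miR-20b belongs to the seed family of miR-106b. miR-93, of the same cluster, had an r of 0.33 with miR-451 and 0.22 with miR-144. miR-144 was most like miR-2140_v15.0 (0.694), miR-29c (0.671), miR-101a (0.617), miR-3107 (0.614) and miR-101b (0.543), with a median of -0.08. miR-101a is the miRNA whose bases 2 to 7 equal those of miR-144. Without replicates 5 and 20 of the middle dose, the r with miR-451 was 0.685 for miR-29c, 0.535 for miR-20b, 0.497 for miR-25 and 0.434 for miR-106b. The r with miR-144 was then 0.696 for miR-29c, 0.616 for miR-101b, 0.602 for miR-101a and 0.381 for miR-2140_v15.0.

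The first of these names, miR-3107, is tied by its gene listing to the erythroid member missing here. Whether its probe reads mature miR-486 could not be settled. RefSeq lists miR-486b among the synonyms of Mir3107 and places its 90-base interval inside that of Mir486 on chromosome 8, within Ank1, the gene of a red cell membrane protein. The probe for miR-3107 was weak, however. Its raw intensity ran from 6.15 to 26.2, and its level sat at the floor on 4 of the 19 arrays, although the software marked it detected on all of them. Without replicates 5 and 20 of the middle dose its r was 0.553 with miR-451 and 0.163 with miR-144. With normexp its r with miR-451 was -0.184, at rank 52, and with a floor 4 times higher all its values were at the floor. On levels its r with miR-451 was 0.682 within slide 1, -0.155 within slide 2 and 0.882 within slide 3. The highest miR-3107 intensity, 26.2, was in replicate 20 of the middle dose, the liver with the most miR-451.

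**Figure D5:**
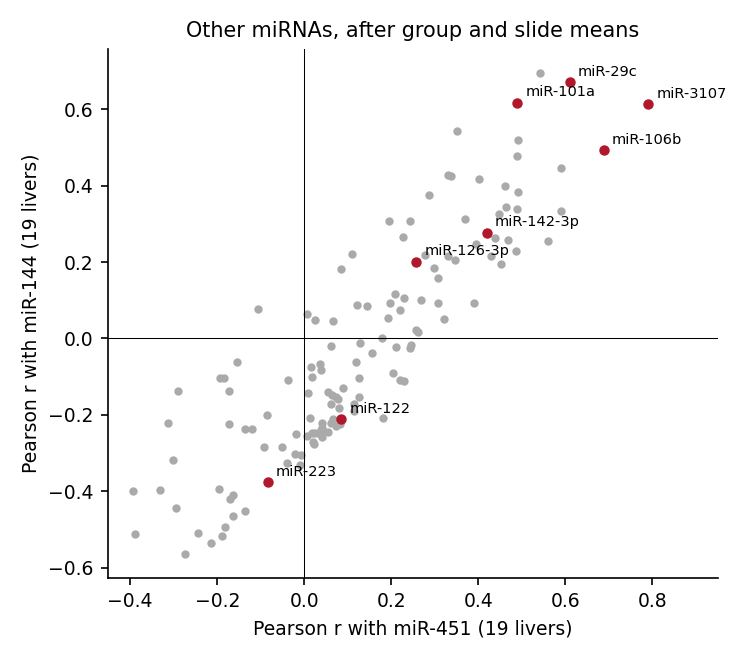
Pearson r of each of 135 other miRNAs with miR-451 (horizontal) and with miR-144 (vertical) over 19 livers after group and slide means were removed, with red points for named miRNAs. miR-3107, miR-106b, miR-29c and miR-101a lie at the upper right, and markers of one cell type are spread: miR-122 of hepatocytes and miR-223 of granulocytes lie below 0 for miR-144, miR-101a and the leukocyte miR-142-3p above it.

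Other miRNAs that red cells hold in quantity, but that many cells make, varied in how closely they followed the pair. Of 9 such miRNAs 8 were detected on every array. After group and slide means were removed, their r with miR-451 ran from -0.16 (miR-92a) to 0.59 (miR-25), with a median of 0.13. With miR-144 the range was -0.41 to 0.33. Against controls 3 of the 8 tested rose at the middle dose, miR-15b by 0.33, miR-92a by 0.34 and miR-93 by 0.24 (limma adjusted p = 0.0320, 0.0320 and 0.0339), where 5.77% of all tested miRNAs were called. Without scaling these stood at -0.25, -0.23 and -0.34, and with the 75th percentile of all probes at -0.16, -0.15 and -0.25, none of them called. miR-93 also turned sign with the spike-ins (-0.00197) and the value table (-0.0405). Their median difference was 0.12, 0.24 and 0.09 at the rising doses, while that of the erythroid pair was 0.07, -0.11 and -0.31. With the scaling of the main fits, 0 members of either list were called lower at any dose, and so were 0 of all 208 miRNAs tested.

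Markers of other cells in the liver were read beside the pair, with each r here taken after group and slide means were removed. Hepatocyte miRNAs (5 of 5 detected on all arrays) had r from -0.02 to 0.49 with miR-451 and from -0.25 to 0.62 with miR-144, the upper ends being miR-101a, and 0 of 5 were called at any dose. Of 6 leukocyte miRNAs 4 were tested, and miR-223, the granulocyte miRNA, rose at every dose, by 0.37, 0.48 and 0.39 (limma adjusted p = 0.0382, 0.0198 and 0.0482), but the call held in 3, 6 and 5 of 13 other settings, and without scaling the middle dose stood at -0.09 and the high dose at -0.32. At the middle dose it was also below 0 with the 75th percentile of all probes (-0.00519). The r with miR-451 was -0.08 for miR-223, 0.42 for miR-142-3p and -0.14 for miR-146a, and that with miR-144 was -0.38, 0.28 and -0.24. miR-150 and miR-155 of lymphocytes were detected on 0 of 19 arrays. The endothelial miR-126-3p rose by 0.29 at the low dose (limma adjusted p = 0.0268), a call that held in 6 of 13 other settings, and had an r of 0.26 with miR-451 and 0.20 with miR-144. For miR-223 and miR-126-3p too, these 13 include the dimmer probe of miR-451 and miR-144, which repeats the main fit. Of 6 muscle miRNAs 2 could be tested, miR-1 (detected on 6 arrays) and miR-133b (on 4), and 0 were called. Beside the counts of these lists, 4.33%, 5.77% and 2.4% of the 208 miRNAs tested were called at the low, middle and high dose.

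The summed level of the erythroid list overlapped across all 4 groups, from 2.88 to 3.37 in controls (log2 of the summed scaled intensity), 2.58 to 3.39 at the low, 2.37 to 3.75 for the middle and 2.60 to 3.12 for the high dose. For leukocytes the ranges were 0.17 to 0.64, 0.64 to 0.72, 0.48 to 0.81 and 0.37 to 0.84, and for endothelium 1.06 to 1.52, 1.58 to 1.70, 1.42 to 1.59 and 1.34 to 1.53. In both lists the low-dose livers lay above all controls, but for leukocytes only by 0.639 (lowest low-dose liver) against 0.637 (highest control). The endothelial sum was nearly that of miR-126-3p alone, as miR-126-5p had a mean level of -4.77, near the floor of -4.79. Among single tested miRNAs, the low-dose and control arrays of 3.37% did not overlap in either direction. The summed levels of the hepatocyte list were 6.63 to 7.02, 6.72 to 7.03, 6.79 to 7.07 and 6.55 to 7.16. As single relations across livers, r was also taken on levels, without removing group and slide means. The lead miRNAs of the 4 lists detected on all arrays were miR-15a, miR-142-3p, miR-126-3p and miR-122. On levels they had r from -0.01 to 0.36 with miR-451 and from -0.24 to 0.26 with miR-144. None of these 8 relations passed the permutation test (smallest adjusted p = 0.313 and 0.451). The part of any of these cells in the levels of miR-451 and miR-144 was not tested.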

How the data were processed

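Liver RNA of 19 mice was hybridized to one-colour Agilent miRNA arrays, 1 mouse per array. Per the file headers, the authors scanned with Agilent Feature Extraction 10.7.3.1, so that the intensity of each spot is background-subtracted and not yet scaled. The deposited value table holds log2 values of 692 miRNAs; how it was scaled stays unknown. Intensities were averaged per probe without outlier spots, divided by the array's 75th percentile over 220 probes detected on all arrays, floored at -4.79 and taken to log2. The brightest probe stood for a miRNA. limma 3.58.1 (R 4.3.3) was fitted to 208 miRNAs detected on at least 4 arrays, with slide as a fixed block, all groups sharing 1 estimate of spread, and Benjamini-Hochberg adjustment within each comparison. Dose against dose contrasts and the relation of the pair's difference to array brightness were added after the data were seen. Correlations used permutation tests (scipy 1.17.1, 100000 resamples; exact within slides). Both were tested on simulated data. Members, marker lists and tests were chosen with earlier results of these data known. Named miRNAs were the members, the 5 with the highest r to each (group and slide means removed), listed markers and miR-34a. The number of arrays limits the precision. Alternatives were other scalings, background, floor, probe rule, slide terms and each array left out. Normexp was run on the median spot signal in place of the mean signal first planned. Comparisons with miR-486 were not run. The middle dose has 4 arrays analysed here, where the labels describe 5 animals.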

Additional observations from a re-analysis of the deposited data

How the results depend on the processing

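Over 10 results of miR-451 and miR-144, 320 alternatives with a test gave 3 called values, all without scaling: the high dose for miR-451 at -0.98, and the slopes at -0.0411 for miR-451 and -0.0448 for miR-144. The sign of the small low-dose difference of miR-451 turned with the 75th percentile of all probes (-0.0396), quantile normalization (-0.0106), no scaling (-0.14), spike-ins (-0.0177), normexp (-0.000992), the value table (-0.0128) and, chosen after seeing the data, the total signal per miRNA (-0.0549). That of miR-144 turned with quantile normalization (-0.00974) and no scaling (-0.0769), and its middle-dose difference with normexp (0.20). On single slides the middle dose stood at -0.59 and 0.66 for miR-451 and 0.81 for miR-144. The low dose on slides 1, 2 and 3 stood at 0.01, 0.38 and -0.20 for miR-451, and at 0.07, 0.44 and -0.21 for miR-144. Leaving out each array in turn gave -0.0482 to 0.22 (low), -0.42 to 0.16 (middle) and -0.37 to -0.16 (high) for miR-451, and -0.00403 to 0.34, -0.68 to 0.0258 and -0.47 to -0.16 for miR-144. The r of the pair was 0.863 to 0.929 with each array left out, and 0.300 with normexp. The causes were not tested.

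Counts of called miRNAs moved more. At the low dose (9) they were 0 with all probes, quantile, no scaling, spike-ins, normexp, total signal or all miRNAs tested, 2 with the value table, 3 without the slide term and 0 to 13 with an array left out. At the middle dose (12) they were 34 with all probes (33 of them lower), 2 with no scaling or all miRNAs tested, 1 with spike-ins or normexp, 7 with the value table and 2 to 36 with an array left out. At the high dose (5) they were 1 with all probes or normexp, 9 with quantile, 69 with no scaling, 23 with spike-ins, 2 with the higher floor, 14 with the value table, 8 with total signal, 19 without the slide term, 10 with slide as a random block, 3 with all miRNAs tested and 1 to 23 with an array left out. No paired analysis was possible because the groups share no replicate numbers.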
